A study of Mus musculus with 7 samples.

Results

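The D segments described here lie between DFL16.1, the D segment farthest from the JH segments, and DQ52, the one next to them, in the mouse Igh locus. They were found as clusters of junctions between the JH4 coding end and chromosome 12. Junctions of all 7 libraries were pooled, kept in the orientation that deletes the DNA between D and JH4, and joined where neighbouring positions were at most 300 bp apart. In the window that ends at DFL16.1, clusters with at least 1000 lines were kept and the one with most lines, DFL16.1 itself, was left out. This gave 10 clusters, of 35 D clusters and 193 D and V clusters with at least 10 lines. Their 109805 lines were 67.5% of the 162617 D junctions. The members were chosen by their pooled line count, so their abundance is given as a description.

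V(D)J recombination builds the variable exon of an antibody heavy chain from a V, a D and a J segment. The RAG nuclease cuts next to a recombination signal, a heptamer and a nonamer held apart by a spacer, and a D segment carries one such signal on each side. A D segment joins a JH segment first, and the DJ join is then fused to a V segment. Cut ends can lose bases, and terminal transferase adds untemplated ones, so a D segment may be read in any frame relative to JH. In mice, some D segments carry a start codon upstream, in frame with the D in one of its reading frames. A DJ join in that frame can encode a truncated heavy chain called Dmu, and pro-B cells with it are known to be counter-selected.

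The data came from HTGTS, a sequencing assay that reads whatever DNA has been ligated to a chosen bait, here the JH4 coding end. Genomic DNA was from bone marrow pro-B cells of 129SVE mice aged 4 to 6 weeks, sorted as B220+CD43highIgM-. There were 3 libraries of WT and 4 of the VH81X-CBEscr/scr genotype, in which CBE stands for CTCF-binding element. What scr/scr denotes is not spelled out in the labels. Libraries held 31986 to 46915 lines, of which 71.8% to 84.8% were marked as duplicates, and 19460 to 30998 D junctions. The sequencing run was read from the first line of each library, which gave 4 runs, and 0 of them held both genotypes. By these runs, run and genotype cannot be told apart. The runs of the other lines were not examined. No label says whether each library is a mouse of its own, and the p-values given here reflect the spread among libraries alone.

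The D sequences are shown first, because the joints and reading frames described later depend on them. They were read from the prey bases of the deposited lines that matched mm9, so a base particular to these mice would not appear. Positions are those of the files' mm9 alignment, and the strand is minus. The D segment is in capitals between the 28 bases of its 5' signal and the 28 bases of its 3' signal. The 3' side faces JH.
D_114690286: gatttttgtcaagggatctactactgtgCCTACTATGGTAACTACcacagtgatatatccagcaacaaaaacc
D_114695747: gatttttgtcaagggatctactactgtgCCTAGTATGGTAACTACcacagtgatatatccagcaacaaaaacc
D_114700407: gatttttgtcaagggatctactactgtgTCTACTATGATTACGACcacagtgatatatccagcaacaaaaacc
D_114705399: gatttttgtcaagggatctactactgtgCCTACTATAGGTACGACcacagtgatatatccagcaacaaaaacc
D_114710077: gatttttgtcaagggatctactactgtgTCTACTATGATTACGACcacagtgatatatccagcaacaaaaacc
D_114714725: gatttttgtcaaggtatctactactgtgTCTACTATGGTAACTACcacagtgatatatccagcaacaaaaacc
D_114719358: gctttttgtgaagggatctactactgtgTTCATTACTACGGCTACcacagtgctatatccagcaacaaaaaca
D_114723458: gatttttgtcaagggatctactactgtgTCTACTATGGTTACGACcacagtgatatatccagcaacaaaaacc
D_114727777: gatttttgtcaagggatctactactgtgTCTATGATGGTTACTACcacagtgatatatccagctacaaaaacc
DFL16.1: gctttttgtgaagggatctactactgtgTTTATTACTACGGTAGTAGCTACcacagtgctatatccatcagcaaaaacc

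From the first to the last, these lie at chr12:114690258-114690330, chr12:114695719-114695791, chr12:114700379-114700451, chr12:114705371-114705443, chr12:114710049-114710121, chr12:114714697-114714769, chr12:114719330-114719402, chr12:114723430-114723502 and chr12:114727749-114727821, and DFL16.1 at chr12:114734516-114734594. Each D segment was 17 bases long in these 9 members, against 23 in DFL16.1. All 9 had the heptamer CACAGTG on the 3' side and TACTGTG on the 5' side, and the 3' nonamer ACAAAAACC, 12 bases beyond the heptamer, stood in 8 of 9. The exception was D_114719358. The 3' signal rested on few lines in places, down to 3 in D_114723458 and 4 in D_114727777. D_114700407 and D_114710077 had the same 17 bases. Apart from D_114719358, the members differed from each other by 0 to 6 of these bases, and D_114719358 differed from them by 9 to 11. The last member, D_114732517, had no D sequence between a pair of heptamers and is given by its junctions alone. Neighbouring D segments among the 9 were 4.10 to 5.46 kb apart, over 37.5 kb. By spacing from DFL16.1 in a gene table of another assembly, D_114727777 lay 3 bp and D_114732517 lay 2 bp from the place of Ighd2-3 and of Ighd6-1, a pseudogene. The other 8 members were not within 60 bp of any listed D gene and keep their positions as names.

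The members were placed in 3 levels by their mean shares. D_114705399 was 9.67% ± 0.648 of D junctions (SD, n = 7 libraries), D_114727777 was 9.54% ± 0.558, D_114714725 was 9.15% ± 0.540 and D_114695747 was 8.83% ± 0.624. These 4 ranged from 7.96% to 10.6% over libraries. Neighbours in this order overlapped in range. D_114719358 followed at 6.74% ± 0.586, D_114690286 at 6.19% ± 0.693, D_114710077 at 6.16% ± 0.535, D_114700407 at 5.61% ± 0.382 and D_114723458 at 5.10% ± 0.492. These 5 ranged from 4.11% to 7.23%, and no library value of a member in one set reached the other set. The sets were cut from these same shares, so their separation is a description and no test of levels. D_114732517 was 0.638% ± 0.0844. It was the member nearest the threshold, with 1030 lines, of which 80.2% sat at its main site, and the largest cluster left out for too few lines, D_114708573, held 201. DFL16.1, at 22.3% ± 1.23, was above every member in all libraries. The rule had left it out as the cluster with most lines. Distance from DFL16.1 did not order the members: the nearest of the 9, D_114727777 at 6.77 kb, and D_114695747 at 38.8 kb were both in the upper set. D_114710077 and D_114700407, with the same D and signal sequences, were both in the lower set. The same signals also stood in D_114690286 and D_114723458 of the lower set and in D_114695747 and D_114705399 of the upper set. D_114690286 and D_114695747, in different sets, differed by 1 base of the D segment.

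**Figure D1:**
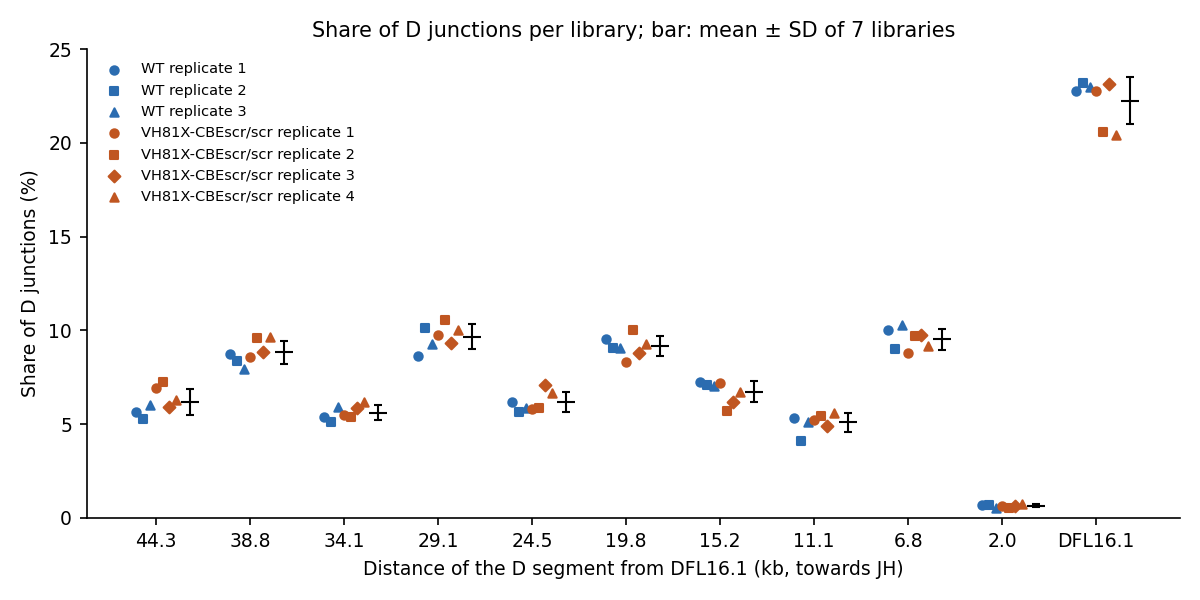
Share of D junctions (%) of each intermediate D segment and of DFL16.1 in each of the 7 libraries, ordered by distance from DFL16.1 in kb; the bar beside each set is the mean ± SD over the 7 libraries. The segments at 38.8, 29.1, 19.8 and 6.77 kb (labelled 6.8) sit between 7.96% and 10.6%, the others at 4.11% to 7.23%, and the one at 2.03 kb (labelled 2.0) below 1%.

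The D segments taken by the JH4 end were compared between the genotypes. In WT replicates 1 to 3 the members together made up 67.4%, 64.5% and 67.1% of D junctions. In VH81X-CBEscr/scr replicates 1 to 4 they made up 66.6%, 69.98%, 67.4% and 70.3%. The groups overlapped, with means of 66.3% ± 1.62 (SD, n = 3) and 68.6% ± 1.84 (SD, n = 4). In limma-voom over 24 D clusters, 0 members passed the adjusted threshold of 0.05, against 4.17% of all clusters (1 of 24, D_114687612, which is no member; its share was 4.04% ± 0.228 in WT, beside 2.87% ± 0.261 in VH81X-CBEscr/scr). An unadjusted p under 0.05 was seen in 1 member and in 2 of the 24 clusters. That member was D_114690286, the one nearest to JH. It was at 5.66%, 5.27% and 6.00% in WT, beside 6.93%, 7.23%, 5.92% and 6.30% in VH81X-CBEscr/scr. The groups overlapped, and the limma-voom log2 fold change was 0.21 (SE 0.0871, adjusted p = 0.336). Log2 fold changes of the 10 members ran from -0.14 in D_114719358 to 0.21, with a median of 0.07 beside 0.07 over all 24 clusters. The groups were fully separate in 0 of 10 members, against 4.17% of the clusters.

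Joints of the members were described by the bases lost at the D end, the bases inserted between D and JH4, and the bases both ends share. Between 81.4% and 98.3% of a member's lines lay within 3 bases before and 20 bases into the D end and were used. The commonest junction was the intact D end in all of the 9 members with a D sequence. D_114723458 kept it in 42.9% ± 2.41 of joins (SD, n = 7) and D_114727777 in 32.5% ± 2.26. DFL16.1 kept it in 19.95% ± 1.06. D_114719358 had the lowest mean of bases lost among the members, with 2.44, 2.28 and 2.32 per join in WT, beside 2.05, 1.94, 2.34 and 2.13 in VH81X-CBEscr/scr. D_114732517 lost fewer in WT replicate 2 (2.14) and in VH81X-CBEscr/scr replicates 3 and 4 (1.83 and 1.86), and more in the other libraries. DFL16.1 lost 4.15, 4.22 and 4.17 in WT, beside 4.34, 4.05, 4.20 and 4.04 in VH81X-CBEscr/scr. The libraries of D_114719358 all lay below those of DFL16.1. The mean difference was -1.95 bases ± 0.191 (SD, lower in 7 of 7 libraries; exact two-sided sign-flip test, adjusted p = 0.0275). All 10 members lost fewer bases than DFL16.1 by this test (means 2.21 to 3.19), as did 100.0% of the 12 D clusters tested. In D_114732517, which has no D sequence, bases were counted from a heptamer on the JH side alone. Its commonest junction lay 2 bases in (27.9% of joins), ahead of 0 bases (22.7%). These 12 are the members with D_114687612 and D_114673089, the cluster of DQ52.

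**Figure D2:**
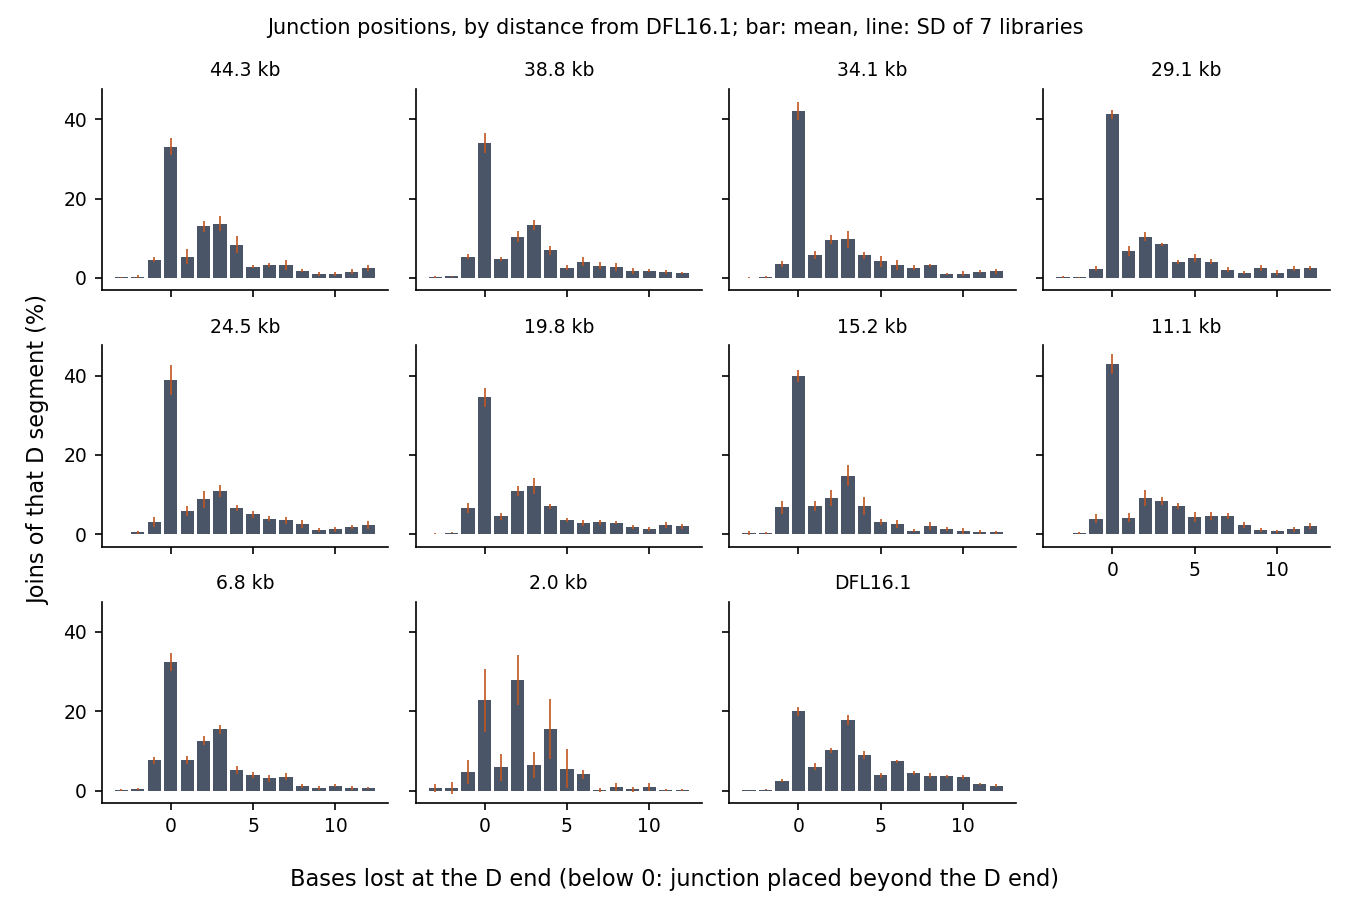
Share of joins (%) at each number of bases lost from the D end, for the 10 intermediate D segments, by distance from DFL16.1 in kb, and for DFL16.1; bars are means and lines SDs over 7 libraries. The intact end stands highest in the 9 segments with a D sequence, at 32.5% to 42.9%, against 19.95% in DFL16.1.

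Inserted bases separated the members by the last bases of the D segment. The 4 that end in GAC, D_114700407, D_114705399, D_114710077 and D_114723458, had on average 4.19 to 4.40 inserted bases per join. The 5 that end in TAC had 3.49 to 3.84. In 7 of 7 libraries every GAC member was above every TAC member. This grouping was made after the values were seen and was not tested. It did not extend to DQ52, which also ends in GAC but had 3.40 ± 0.150 inserted bases (SD, n = 7 libraries). That is below the mean of every TAC member. D_114687612, which ends in TAC, had 3.60 ± 0.183. D_114700407 had 4.34, 4.34 and 4.74 inserted bases in WT, beside 4.22, 4.30, 4.46 and 4.40 in VH81X-CBEscr/scr. DFL16.1, which also ends in TAC, had 3.35, 3.26 and 3.32 in WT, beside 3.25, 3.30, 3.35 and 3.24. Every library of D_114700407 lay above every library of DFL16.1, and the mean difference was 1.11 ± 0.158 bases (SD, higher in 7 of 7; exact two-sided sign-flip test, adjusted p = 0.0275). All 10 members had more inserted bases than DFL16.1 by this test, against 91.7% of the 12 D clusters. On lines not marked duplicate 5 of 10 were called. There the difference turned to -0.14 bases in D_114719358 and to -0.28 in D_114732517, each higher in 2 of 7 libraries. On distinct junctions 9 of 10 were called, and D_114719358 was not (exact test, adjusted p = 0.0622). At least 1 inserted base was present in 88.6% to 92.0% of joins, more often than in DFL16.1 (87.2%) in 8 of 10 members, with 75.0% of clusters called higher. Bases shared by both ends were seen in 3.54% to 6.53% of joins, less often than in DFL16.1 (6.96%) in 6 of 10 members, with 66.7% of clusters called lower. On lines not marked duplicate these counts were 3 and 2 of 10, and the mean difference in shared bases turned in D_114727777 (0.23 points).

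**Figure D3:**
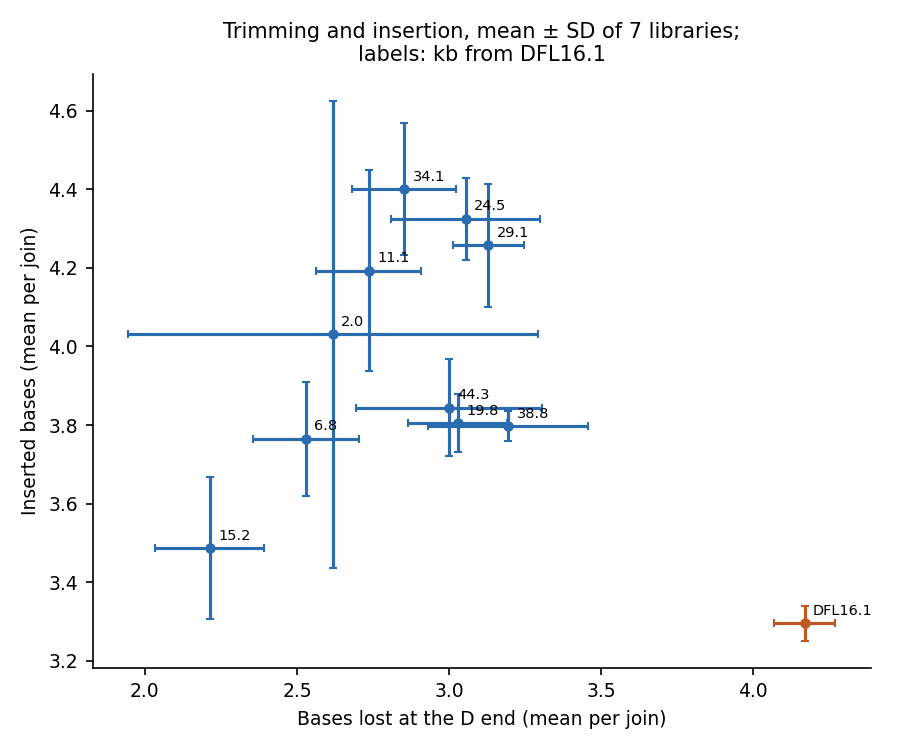
Mean inserted bases per join against mean bases lost at the D end, one point for each intermediate D segment (labelled by kb from DFL16.1) and for DFL16.1, with SDs over 7 libraries. DFL16.1 lies apart at 4.17 lost and 3.30 inserted bases; the points at 34.1, 24.5, 29.1 and 11.1 kb, whose D ends in GAC, lie at 4.19 to 4.40 inserted bases.

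The tests against DFL16.1 stand on 7 libraries, whose smallest unadjusted p is 0.0156. Without WT replicate 1, 2 or 3, or VH81X-CBEscr/scr replicate 3 or 4, 0 of 81 tests passed, with lowest adjusted p-values of 0.0527 to 0.0550 in the exact test. Without VH81X-CBEscr/scr replicate 1 or 2, 51 and 60 passed, beside 57 with all libraries (70.4%). The smallest unadjusted p is 0.0312 with any 6 libraries. On lines not marked duplicate 31 passed. Between genotypes, 0 of 88 D and V clusters passed in any of the 4 joint measures by limma (0.0% each; unadjusted p under 0.05 in 5, 4, 1 and 1 clusters for bases lost, inserted bases, joins with inserted bases and joins with shared bases). Member differences in bases lost ran from -0.60 to 0.40.

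The reading frame of the D segment relative to JH4 was read from each join. Frame 1 has codons starting at the first base of the D segment, frame 2 at the second and frame 3 at the third. Between 7964 and 15030 joins per member were used. Frame 1 was the rarest frame in all 7 libraries in 6 members, D_114690286, D_114695747, D_114700407, D_114705399, D_114714725 and D_114727777, and in 6 of 7 in D_114723458. It was also the rarest in DFL16.1 in all 7. D_114714725 had the lowest mean, with 14.8%, 14.1% and 16.2% in WT, beside 17.5%, 24.4%, 15.8% and 18.0% in VH81X-CBEscr/scr. DFL16.1 had 29.7%, 29.5% and 28.4% in WT, beside 30.9%, 29.0%, 27.9% and 27.4%. Every library of D_114714725 lay below every library of DFL16.1. The mean difference was -11.7 percentage points ± 3.72 (SD, lower in 7 of 7; exact two-sided sign-flip test, adjusted p = 0.0275). D_114727777 was lower by a difference of -10.99 ± 3.11 points and D_114690286 by -10.6 ± 4.60, both in 7 of 7 libraries and with the same adjusted p in that exact test. D_114705399 (-6.15), D_114700407 (-5.58) and D_114695747 (-3.85) were lower in 6 of 7 (exact test, adjusted p = 0.0444). D_114723458 differed by -3.12 ± 4.12 points (exact test, adjusted p = 0.147). The remaining members went the other way: D_114719358 was higher by 4.14 ± 2.03 points (exact test, adjusted p = 0.0275) and D_114710077 by 4.45 ± 3.61 (exact test, adjusted p = 0.0444). Thus 6 of 9 members were called lower and 2 higher, beside 54.5% and 27.3% of the 11 D segments tested (81.8% in either direction). On lines not marked duplicate, 4 of 9 were called lower and 0 higher.

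**Figure D4:**
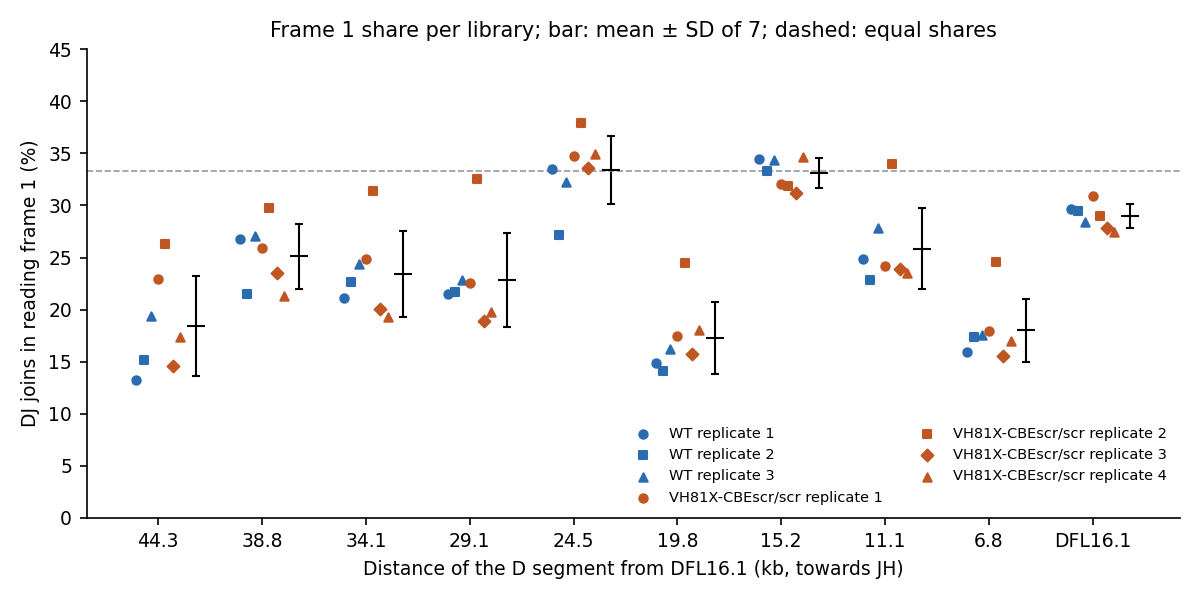
Share of DJ joins (%) in reading frame 1 for each library and D segment, by distance from DFL16.1 in kb, with the mean ± SD of 7 libraries beside each set; the dashed line marks equal use of the 3 frames. The segments at 24.5 and 15.2 kb sit around that line, with means of 33.4% and 33.1%, while 7 others have means of 17.3% to 25.9%, and VH81X-CBEscr/scr replicate 2 (orange square) is highest in 8 of 9.

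One pair of members differed in frame 1 while sharing a D sequence. D_114700407 and D_114710077 share their D segment and both signals, so their DJ joins are alike in sequence from the 5' signal on. They are shown with the 63 bases upstream, beside D_114719358. Capitals mark the upstream ATG in frame 1 and a stop codon in that frame, and codons inside the D segment stay in lower case.
D_114700407: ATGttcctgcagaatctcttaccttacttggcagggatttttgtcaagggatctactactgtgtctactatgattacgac
D_114710077: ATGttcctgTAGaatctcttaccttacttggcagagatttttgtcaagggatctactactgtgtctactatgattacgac
D_114719358: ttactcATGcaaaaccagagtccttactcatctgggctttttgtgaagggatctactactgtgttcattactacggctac

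In D_114700407 frame 1 was open from an ATG 63 bases upstream to the D segment. In D_114710077 the same ATG was followed by TAG, 54 bases upstream, through the change C10T, counted from the A of the ATG. The 63 bases held 1 other difference, G35A. Frame 1 made up 21.1%, 22.7% and 24.4% of D_114700407 joins in WT, beside 24.9%, 31.4%, 20.1% and 19.3% in VH81X-CBEscr/scr. In D_114710077 it made up 33.5%, 27.2% and 32.2% in WT, beside 34.7%, 37.9%, 33.6% and 34.9% in VH81X-CBEscr/scr. Within a library D_114710077 was higher in 7 of 7, by 10.03 ± 4.04 percentage points (SD). The pair was picked after its values were seen, so this difference has no test. It was 7.39 points on lines not marked duplicate, 10.8 on distinct junctions and 10.1 among joins with an inserted base. The prey bases of 99.7% and 99.9% of the lines of D_114700407 and D_114710077 matched their own cluster best. Lines had been placed by their alignment to mm9, so these shares show few ties and are no separate check of the placement.

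The same search over 300 bases upstream found frame 1 open back to an ATG in all of the other 7 members with a D sequence. The nearest ATG stood 63 bases upstream in 6 of them, and 57 bases upstream in D_114719358, where frame 1 was not low. Frame 3 was not open to an upstream ATG in any of the 9 members. Frame 2 was open to one in D_114723458 alone, 104 bases upstream. Frame 2 of the D segment itself held a stop codon in all but D_114719358 and D_114723458, and frame 3 held one in D_114695747. DFL16.1 had a start codon in frame 1, 108 bases upstream, and another in frame 3, 70 bases upstream. Whether these codons are used was not measured. Over the 9 members frame 3 ran from 32.9% to 48.4% of joins in single libraries and frame 2 from 24.7% to 44.2%.

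VH81X-CBEscr/scr replicate 2 had the highest frame 1 share of the 7 libraries in 8 of 9 members. It held 24.4% or more in each of the 7 members with low frame 1, while the other 6 libraries reached at most 27.8% there. By limma, 0 of 36 frame shares over 12 D segments differed between genotypes (0.0%; unadjusted p under 0.05 in 0).

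A D segment can also be read inside V(D)J joins, as the bases between V and JH4. Of 95203 V junctions, 57.7% held a stretch of at least 8 bases matching 1 D sequence best, 9.63% were tied and 32.7% had none. D_114700407 and D_114710077 cannot be told apart there. D_114714725 and D_114690286 have 0 of 10 stretches of 8 bases of their own, so only joins with longer matches are named for them. They made up 1.30% and 1.88% of assigned V(D)J joins, beside 9.31% and 6.29% of the DJ joins of the same D segments. In V(D)J joins frame 1 was rarer still in the members that were low in DJ joins. D_114714725 had it in 0%, 2.47% and 2.15% of joins in WT, beside 0.935%, 1.28%, 2.06% and 0% in VH81X-CBEscr/scr, over 78 to 146 joins per library. These 0 values allow up to 2.05% and 2.86% (3 counts, for counting error only). Those bounds count all lines, and lines not marked duplicate numbered only 23 to 64 per library for this D segment. D_114727777 had 4.50%, 4.98% and 3.26% in WT, beside 3.62%, 3.77%, 5.39% and 3.42%, over 562 to 977 joins. No library of either reached 6%. DFL16.1 had 25.8%, 20.8% and 24.98% in WT, beside 24.8%, 22.8%, 23.004% and 24.1%. D_114690286, D_114695747, D_114705399 and D_114723458 had means of 4.44%, 6.45%, 8.24% and 6.55%. All 6 were below DFL16.1, and below their own DJ share, in 7 of 7 libraries. The V(D)J shares cover only joins with a matched stretch, while the DJ shares need no such match. What this selection does to the frames was not tested. DFL16.1 was also below its own DJ share in 7 of 7, so 7 of 10 D sequences were. D_114719358, D_114687612 and D_114673089 were below theirs in 1 of 7 each. In the 6 low members, frame 3 had means of 54.6% to 68.7% of V(D)J joins and frame 2 had means of 30.002% to 38.2%.

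D_114719358 again stood apart, with frame 1 in 35.01%, 33.9% and 29.2% of its V(D)J joins in WT, beside 32.6%, 32.4%, 36.0% and 35.5% in VH81X-CBEscr/scr. Its V(D)J mean of 33.5% ± 2.34 (SD, n = 7) lay beside a DJ mean of 33.1% ± 1.42. The sequence shared by D_114700407 and D_114710077 had frame 1 in 22.3%, 19.8% and 24.6% of V(D)J joins in WT, beside 26.1%, 25.7%, 27.3% and 27.8% in VH81X-CBEscr/scr. The groups did not overlap, as in 6.06% of the 33 frame shares over 11 D sequences, and did not on lines not marked duplicate or on distinct junctions either. The difference of 4.50 percentage points had p = 0.0286 in an exact two-sided permutation test, the smallest that 35 splits allow (adjusted p = 0.471). By this test 0 of 33 passed (0.0%; unadjusted p under 0.05 in 2, both of this sequence). So few shares at the smallest p cannot pass the adjustment, so the 0 does not show that frames were alike. On distinct junctions the groups also did not overlap in D_114714725, where they did on all lines. There WT and VH81X-CBEscr/scr means were 24.2% and 34.5% in frame 2, and 73.8% and 64.3% in frame 3 (exact permutation test, adjusted p = 0.189). The mean of 24.8% ± 2.86 for the sequence shared by D_114700407 and D_114710077 stood beside DJ means of 23.4% and 33.4%. How these joins divide between the 2 segments was not measured. With a matched stretch of at least 10 bases, the means of the 6 low members were 1.27% to 8.37%. The lowest, D_114714725, kept the same 707 joins in this setting, so its value could not change. V(D)J joins were not split into productive and non-productive ones here.

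**Figure D5:**
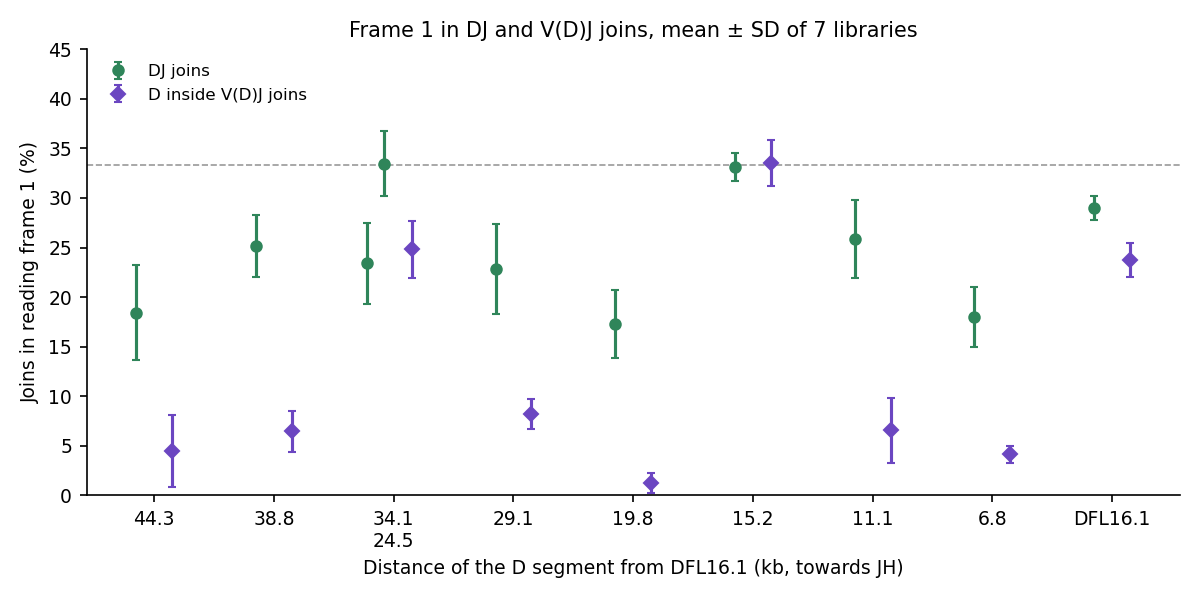
Share of joins (%) in reading frame 1, mean ± SD of 7 libraries, in DJ joins (circles) and for the D segment inside V(D)J joins (diamonds), by distance from DFL16.1 in kb. Where 34.1 and 24.5 kb share a place, the left circle is the first and the right circle the second, and the diamond covers both. The diamonds lie at 1.27% to 8.24% in 6 segments, at 24.8% for the shared place, 33.5% at 15.2 kb and 23.7% in DFL16.1.

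Shares of the members among the assigned V(D)J joins are given with a limit: 0 of 10 stretches of 8 bases are peculiar to D_114690286 and to D_114714725, so these can be named from longer matches only. D_114705399, with 9 of 10 stretches of its own, was 18.2% ± 1.04 of assigned V(D)J joins, beside 9.84% ± 0.670 of the DJ joins of the same D segments. D_114727777, also with 9 of 10, was 10.1% ± 0.667 beside 9.70% ± 0.558. Both values come from the same libraries, but assignment differs between D sequences, so no order of use was read from them. By limma, 0 of 11 D sequences differed between genotypes in this share (0.0%; unadjusted p under 0.05 in 0), with member log2 differences of -0.10 to 0.18.

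Joins in the inverted orientation within 30 bases of a member were rare. They numbered 162 over all members, 0.147% of their lines, and 64.8% of them lay at the border of the 3' heptamer. D_114705399 had 32, which is 0.204% of its lines (95% Wilson interval 0.144% to 0.288%). D_114723458 had 2, which is 0.0241% (0.00662% to 0.0880%), and D_114719358 had 5, which is 0.0453% (0.0193% to 0.106%). The lines are PCR reads without molecular identifiers, so these intervals cover counting error only, and 1 library gave up to 15 of the 21 such lines of D_114690286. By limma, 0 of 13 D clusters differed between genotypes in the inverted share (0.0%; unadjusted p under 0.05 in 0).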

How the data were processed

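The deposited files list 1 junction per line with its position, strand, bait and prey ends and read sequence. Reads were aligned with Bowtie2 to mm9, per the submitters' processing notes; a version or filter is not given in the sources used here. No deposited column holds counts, so lines were counted, lines marked as duplicates included. The members, lists and comparisons were chosen with earlier results of these data known. Every member was named, with DFL16.1, DQ52 and D_114687612 beside them.

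D sequences and the JH4 end were taken from the most frequent base at each position of the deposited reads. Only bases that the alignment marked as matching mm9 were counted. The sequences therefore follow mm9 and cannot show a base in which these mice differ from it. No separate mm9 genome sequence was used. Shares of D junctions were compared between genotypes with limma-voom (limma 3.58.1, R 4.3.3) over D clusters with a mean of at least 10 lines in either group, with all D junctions as library size. Joint measures, frames, inverted shares (log2 ratio, pseudocount 0.5) and D use in V(D)J joins were compared with limma. Joint measures covered clusters with at least 30 lines in every library. Differences from DFL16.1 within libraries used exact two-sided sign-flip tests over 128 sign patterns, adjusted over 81 tests. P-values were adjusted by the Benjamini-Hochberg method and called at 0.05. With 19460 to 30998 D junctions per library, a count of 0 allows a share of up to 0.00968% to 0.0154% (3 counts), which covers counting error only.

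Methods were tested on simulated data. Alternatives were lines not marked duplicate, distinct junctions, leaving out each library, other normalizations, filters and cluster gaps, and the replicate block. Added after seeing the data were the sequencing run as a random block, joins with inserted bases, best-matching prey, the alternatives for frames in V(D)J joins, the exact permutation test of those frames between genotypes, and the replicate block for D use in V(D)J joins. Tables used Python 3.11.15, pandas 2.3.3 and SciPy 1.17.1.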

Additional observations from a re-analysis of the deposited data

Results flagged for a closer look

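In the 4 VH81X-CBEscr/scr libraries, 85 sets of member values were examined for 1 library far from the other 3, and 4 were found; chance gives about 1 in 20. D_114723458 had 34.0% of DJ joins in frame 1 in replicate 2, against 23.5% to 24.2% in the other 3. D_114727777 had 32.3% in frame 2 in replicate 2, against 36.1% to 36.8%. D_114695747 lost 2.79 bases per join in replicate 1, against 3.29 to 3.34, and had shared bases in 6.42% of joins in replicate 3, against 5.56% to 5.58%. WT, with 3 libraries, was not examined.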

How the results depend on the processing

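The genotype comparison of D shares called 1 of 24 clusters, and 1 when any 1 library was left out. The replicate block, which uses replicates 1 to 3 of each group, called 0 (lowest adjusted p = 0.420 by limma), and the exact permutation test called 0 (lowest adjusted p = 0.633). D_114687612 had p = 0.0286 in the exact permutation test, the smallest that 35 splits allow. A single cluster at that value cannot pass the adjustment over 24 clusters, so this 0 does not bear on the call. Same-numbered libraries did not deviate together (correlations -0.50, -0.17 and -0.07). These few values cannot decide whether the numbers pair the libraries, and the labels do not say so. For inverted shares, joint measures, DJ frames and D use in V(D)J joins the replicate block called 0 as without it. No setting called a member. Signs turned in D_114700407 with median-ratio size factors (-0.016), in D_114714725 on lines not marked duplicate (0.074) and with libraries left out (-0.073 to 0.015), and in DQ52 with libraries left out (-0.052 to 0.228). In D_114732517 they turned on lines not marked duplicate (-0.047), with the replicate block (-0.083), median-ratio size factors (-0.056), library size without DFL16.1 (-0.0049), best-matching prey (-0.10), gaps of at most 100 bp (-0.11), the exact permutation test (-0.015) and with libraries left out (-0.139 to 0.092). The members' summed share rose on lines not marked duplicate (70.3% in WT, 72.0% in VH81X-CBEscr/scr) and without DQ52 in the denominator (70.3% and 72.7%). With libraries left out it was 65.8% to 67.3% and 68.0% to 69.2%. Joins with inserted and with shared bases gave 0 to 4 and 0 to 2 calls between genotypes with libraries left out, all in V clusters. Against DFL16.1, 31 of 81 tests passed on lines not marked duplicate, beside 57, and 0 to 60 with libraries left out. Frames between genotypes gave 2 calls on lines not marked duplicate, both in D_114687612. The frame 1 difference between D_114710077 and D_114700407 stayed at 9.10 to 10.96 points with libraries left out. Frame 1 shares of D_114714725, D_114727777 and D_114690286 were 24.1%, 26.5% and 25.6% on lines not marked duplicate, beside 17.3%, 18.0% and 18.4%. The cause of these changes was not tested.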

Other observations

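The commonest single joint made up 0.971% to 2.08% of a member's joins. In D_114719358 it kept the whole D end, lost 2 bases of JH4 and shared 3 bases, in 2.08% ± 0.517 of joins (SD, n = 7 libraries). The same kind of joint was the commonest in D_114690286 (1.88% ± 1.26), D_114695747 (1.85% ± 0.623), D_114714725 (1.97% ± 0.809) and D_114727777 (1.93% ± 0.703), which all end in TAC, and in DFL16.1 (1.77% ± 0.251). In D_114705399 and D_114723458 the commonest joint lost 6 bases of JH4 and had 1 inserted base, in 1.15% ± 0.418 and 1.10% ± 0.525 of joins. In D_114700407 and D_114710077 it shared 7 bases and lost 3 bases of the D end, in 0.971% ± 0.415 and 1.41% ± 0.322. In D_114732517 it lost 4 bases of JH4 and shared 1 base, in 1.56% ± 1.67.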
